A study of Homo sapiens with 6 samples.

Results

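Heterogeneous nuclear ribonucleoproteins (hnRNPs) coat nascent transcripts, and 10 of the genes that encode them are described here. The description rests on the peaks along these genes in RNA immunoprecipitation samples of cells read as overexpressing SNRPD2, the gene of SmD2. The genes were HNRNPA1, HNRNPA2B1, HNRNPA3, HNRNPAB, HNRNPC, HNRNPD, HNRNPK, HNRNPM, HNRNPU and HNRNPUL1, taken by name. A peak was counted for a gene when its summit lay within the gene's RefSeq span on build GRCh38. The 10 genes stood among 20037 protein-coding genes and held 96 summits: 11 of the 30111 peaks of replicate 1, 55 of the 160931 peaks of replicate 2 and 30 of the 65097 peaks of replicate 3. Spans ran from 6.36 kb for HNRNPA1 to 60.3 kb for HNRNPC and added up to 232.9 kb.

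SmD2, the product of SNRPD2, is one of the Sm proteins that form a ring on most spliceosomal small nuclear RNAs. The samples were RNA immunoprecipitation sequencing (RIP-seq) libraries of HEK293T cells, an established human embryonic kidney line. Cells of the genotype SNRPD2OE, read as overexpression of SNRPD2, gave 3 samples, each with its own peak list, and 3 samples of the genotype Ctrl were not analysed here. The construct and the antibody are not stated in the labels, so SmD2 as the protein pulled down is an assumption. The study asked how SmD2 relates to RNA that carries pseudouridine, a modification made by enzymes such as PUS7. With 1 group of samples no test between conditions was made, and every comparison below is a description. Separate cultures are not named in the labels, so differences among the lists may be purely technical.

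Many hnRNP proteins, though not all, bind RNA through RRM or KH domains, and hnRNPs often act with or against the splicing machinery. HnRNP A1 and its relatives commonly silence exons, hnRNP C covers uridine tracts, and hnRNP K prefers cytidine-rich RNA. Many of these proteins regulate the splicing of their own or each other's pre-mRNA, and their mRNAs are abundant in dividing cells. RNA levels were not measured in the files used here, so the part of transcript abundance in any value below was not tested.

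The lists differed in kind as well as length. Peaks wider than 1000 bp numbered 49284 (75.7%) in replicate 3, while replicate 1 had 2 and replicate 2 had 0. Most peaks rested on few reads, with medians of 4, 1 and 1 at the summit in replicates 1, 2 and 3. Reads at the summit were recovered from the fold and p-value that the authors deposited for each peak, and they are the measure of depth used below. They may include repeated copies of a molecule.

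HNRNPAB, HNRNPD, HNRNPM, HNRNPU and HNRNPUL1 had a summit in every list, which is 5 of 10 genes against 38.5% of all protein-coding genes. HNRNPA2B1, HNRNPC and HNRNPK had summits in 2 lists. HNRNPA1 and HNRNPA3 had none in any list, while 18.1% of protein-coding genes had none. By list, 6, 8 and 7 of the 10 genes held a summit in replicates 1, 2 and 3, against 45.3%, 76.7% and 65.5% of protein-coding genes. These counts lie near the background. Longer genes hold a summit more often, so genes of like length were also set beside them. Of the 6 genes of 6 to 15 kb, 2 had a summit in all lists, against 20.1% of protein-coding genes of that length, and 2 had none, against 23.7%. Of the 4 genes of 20 to 65 kb, 3 had a summit in all lists, against 51.6%, and 0 had none, against 6.5%.

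**Figure D1:**
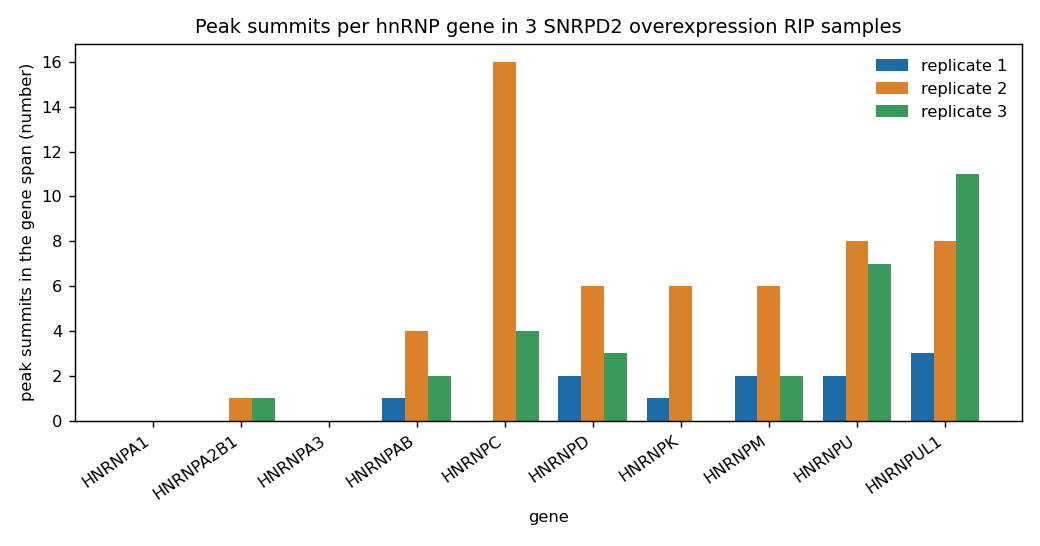
Number of peak summits (vertical axis) in the span of each of the 10 hnRNP genes (horizontal axis), with 1 bar for each of the 3 SNRPD2 overexpression samples. HNRNPC reaches 16 summits in replicate 2, HNRNPUL1 reaches 11 in replicate 3, and HNRNPA1 and HNRNPA3 have no bar.

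Summits were denser along these genes than along all protein-coding spans. The 10 spans held 0.0472, 0.236 and 0.129 summits per kb in replicates 1, 2 and 3, against 0.0219, 0.0934 and 0.0363 over the protein-coding spans. The median protein-coding gene had 0, 0.106 and 0.0315 summits per kb. HNRNPU, also called SAF-A, a chromatin-associated RNA-binding protein, stood highest among the 10 in replicate 3. Its density exceeded that of 89.0%, 95.1% and 98.8% of protein-coding genes in replicates 1, 2 and 3. HNRNPAB exceeded 89.8%, 95.8% and 96.9%. HNRNPM, which represses or promotes exons through GU-rich sites, lay closer to the middle, at 73.1%, 58.2% and 60.1%. Short spans raise a density, so these ranks do not compare binding between genes. The pooled densities were not set beside those of genes of like length, and the part of gene length in them was not tested.

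The peaks of the hnRNP genes held more reads at the median, in every list, than peaks of protein-coding genes in general, while their widths differed from the background in both directions. Median reads were 13, 16 and 12.5 in replicates 1, 2 and 3, against 5, 1 and 2, and median widths were 75, 75 and 91.5 bp, against 79, 40 and 7411 bp. At least 10 reads lay at the summit of 7 of 11 peaks (63.6%) in replicate 1, 31 of 55 (56.4%) in replicate 2 and 21 of 30 (70%) in replicate 3. Over all peaks with a summit in a protein-coding gene the shares were 22.4%, 6.85% and 10.8%. A single-read summit was found in 16 of 55 peaks (29.1%) of replicate 2 and 3 of 30 (10%) of replicate 3, against 65.1% and 45.9%. In replicate 3, 2 of 30 peaks, both in HNRNPC, were wider than 1000 bp, against 67.4% of the peaks in protein-coding genes. The caller's background was higher too. Its median was 3.34, 5.42 and 1.38 reads at the hnRNP summits, against 0.195, 0.0722 and 0.0316 reads in protein-coding genes. The part of this higher background in the number and strength of the peaks was not tested.

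Peak strength was also read from the deposited q-value. In replicate 2, 9 of 55 peaks in 7 of the 10 genes had a −log10 q of at least 1.3, which is a q-value of 0.05, and 18.3% of protein-coding genes had such a peak. None of the peaks of replicates 1 and 3 in these genes reached it, against 5.21% and 4.01% of protein-coding genes. A −log10 q of 3 was reached by 2 peaks, both in replicate 2, in HNRNPM and HNRNPU, which is 2 of 10 genes against 5.39% of protein-coding genes.

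HNRNPA1, which encodes a splicing silencer that binds UAGG-type motifs, and its close relative HNRNPA3 had no peak at all. HNRNPA1 (chr12:54280726-54287087) lay 8387, 5071 and 4162 bp from the nearest peak of replicates 1, 2 and 3. HNRNPA3 (chr2:177212794-177223959) lay 40598, 6792 and 5005 bp from it. The wide peaks of replicate 3 did not reach either span. Both genes have many processed copies in the genome, and RefSeq lists 75 pseudogenes of HNRNPA1 and 17 of HNRNPA3. Of the HNRNPA1 copies, 24 (32.0%) held a summit in at least 1 list, and of the HNRNPA3 copies 6 (35.3%), against 23.1% of all RefSeq pseudogenes. Among copies of 1 to 2 kb it was 21 of 64 (32.8%) and 3 of 12 (25%), against 28%. How reads from near-identical copies were assigned is not stated. Their part in the lack of a peak at either parent gene was not tested, and that lack remains uncertain.

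HNRNPA2B1 (chr7:26189927-26200746, minus strand), whose protein binds UAG-containing RNA much as hnRNP A1 does, had 1 summit in replicate 2 and 1 in replicate 3. They had 17 and 11 reads and lay 97 bp apart, at 78.8% and 77.9% of the span. The 2 peaks overlapped over 105 bp. The nearest peak of replicate 1 lay 16093 bp from the gene.

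HNRNPAB (chr5:178204533-178211163, plus strand) encodes a protein built, like hnRNP A1 and hnRNP D, around a pair of RRM domains, and all lists placed a peak at the same spot in it. Its strongest peak lay at the gene start in each list, with 25, 28 and 24 reads and folds of 3.20, 2.89 and 3.90 in replicates 1, 2 and 3. The summits lay 125, 127 and 131 bp from the start, a spread of 6 bp. The stretch shared by the 3 peaks, chr5:178204574-178204669, was 96 bp long. Within their own lists these peaks were stronger by −log10 p than 83.5%, 98.1% and 95.4% of peaks. Set beside only the strongest peak of each protein-coding gene with a summit in the list, they exceeded 65.8%, 86.3% and 85.6%. Their −log10 q was 0.354, 2.39 and 0.109. A second site lay at 73.3% and 72.4% of the span, with 20 reads in replicate 2 and 16 in replicate 3. It also lies inside PHYKPL, a gene that overlaps HNRNPAB, and without strand its reads cannot be assigned to either gene.

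HNRNPD (chr4:82352498-82373991, minus strand) encodes AUF1, which binds AU-rich elements and influences mRNA decay. It too had a peak at its start in every list, with 7, 6 and 6 reads and folds of 3.96, 4.54 and 2.43. The summits lay 103, 181 and 118 bp from the start, and the stretch covered by all 3 lists, chr4:82373855-82373914, was 60 bp long. The site was therefore shared, but on far fewer reads than that of HNRNPAB. The strongest HNRNPD peaks of replicates 2 and 3 lay elsewhere. That of replicate 2 lay at 92.5% of the span with 8 reads and a fold of 4.56, and that of replicate 3 at 67.3% with 12 reads and a fold of 3.72. Neither had a summit of another list within 100 bp.

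HNRNPC (chr14:21209147-21269442, minus strand), the longest of the 10, encodes a protein that binds uridine tracts of nascent RNA. It had no peak in replicate 1, 16 in replicate 2 and 4 in replicate 3. A single read lay at 9 of the 16 summits and 2 of the 4. The 2 wide peaks of replicate 3, of 4164 and 19079 bp, held 1 read at the summit each and covered 8 of the 9 single-read peaks of replicate 2. The tall peaks formed few sites. At the gene start, 66 bp in, replicates 2 and 3 placed their summit on the same base, with 43 and 42 reads. Folds there were 2.31 and 2.33, over backgrounds of 18.1 and 15.8 reads. Near 58% of the span, peaks of 45 and 30 reads in replicates 2 and 3 overlapped by 31 bp with summits 192 bp apart. Tall as they were, their folds were 1.41 and 2.87, over backgrounds of 31.6 and 7.88 reads. The −log10 p of the 45-read peak was 2.02, close to the smallest in its list. A further group of 4 peaks between 96.2% and 98.2% of the span, with 6 to 21 reads, was listed in replicate 2 alone.

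HNRNPK (chr9:83968083-83980615, minus strand) encodes a KH-domain protein with a preference for cytidine-rich RNA. It had 1 peak in replicate 1, 6 in replicate 2 and none in replicate 3. Every one had at least 22 reads, over backgrounds of 11.7 to 18.96 reads, and folds were at most 2.30. The peak of replicate 1 lay 40 bp from the gene start and overlapped one of replicate 2 at 60 bp, with 26 reads in each. These summits also lie in RMI1, a gene whose span overlaps HNRNPK, and cannot be assigned to either without strand. The strongest peak of replicate 2, with 45 reads, lay at 68.8% of the span and had a −log10 q of 2.36. MIR7-1, a microRNA hairpin inside the HNRNPK span, held no summit.

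HNRNPM (chr19:8444975-8489114, plus strand) had its peaks on few reads, 1 to 8 at all but 1 of the 10 summits. In replicates 1 and 2 the strongest peak was at 64.97% of the span, with summits 1 bp apart, 3 and 6 reads, and folds of 2.61 and 6.12. In replicate 2 this peak had a −log10 q of 4.28, the highest among the 96 hnRNP peaks, over a background of 0.144 reads. Replicate 3 had no peak there. Its own strongest HNRNPM peak lay 114 bp from the gene start with 7 reads, where the other lists had none. Replicates 1 and 3 shared a further site at 53.9% and 54.0% of the span with 5 and 7 reads.

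HNRNPU (chr1:244850297-244864543, minus strand) held the most sites listed by more than 1 replicate, 6 of its 11 sites, but none was listed by all 3. Reads were high throughout, from 31 to 46 in replicate 1, 15 to 36 in replicate 2 and 14 to 42 in replicate 3. Backgrounds ran from 8.34 to 23.4, 4.51 to 12.6 and 1.46 to 15.8 reads in these lists. At 44.6% of the span the summits of replicates 2 and 3 lay 1 bp apart with 36 and 35 reads, and in replicate 2 this peak had a −log10 q of 3.43. At 13.3% they lay 2 bp apart with 19 and 18 reads and folds of 3.63 and 4.06. At 36.6% replicates 1 and 2 placed their summit on the same base, with 31 and 17 reads. At the gene start replicates 1 and 3 had summits 6 bp apart, the first 96 bp in, with 46 and 42 reads. Folds at this start were 1.91 and 2.33, over backgrounds of 23.4 and 15.8 reads. The HNRNPU span also contains the small nucleolar RNA gene SNORA100, which held no summit.

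HNRNPUL1 (chr19:41262557-41307787, plus strand), an HNRNPU relative, had 3, 8 and 11 summits, spread from its start to its end. Its site at 86.2% of the span was listed by all 3 replicates with 13, 11 and 12 reads and folds of 2.93, 2.60 and 3.75. The summits of replicates 1 and 2 lay 1 bp apart, and that of replicate 3 lay 19 bp beyond that of replicate 2. Only 21 bp, chr19:41301574-41301594, were covered by all 3 peaks. The strongest HNRNPUL1 peaks of replicates 1 and 2 lay elsewhere. That of replicate 1 lay at 97.3% of the span, with 7 reads and a fold of 3.54. That of replicate 2 lay at 41.2%, with 13 reads, a fold of 3.77 and a −log10 q of 1.57. A further 4 sites were listed by 2 replicates. They included one at 12.7% of the span with 20 and 21 reads in replicates 2 and 3 and summits 1 bp apart. Another joined the peak of replicate 1 at 97.3%, with 7 reads, to one of replicate 3 at 97.1%, with 6 reads.

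**Figure D2:**
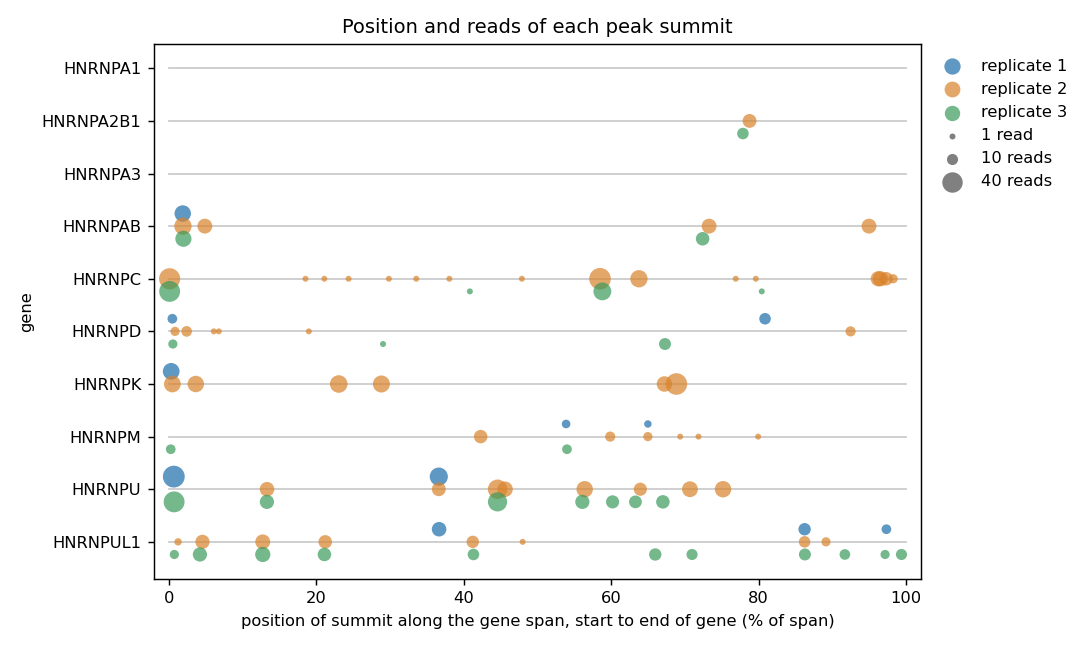
Position of each of the 96 summits (horizontal axis, percent of the gene span from gene start to gene end) in the 10 genes (vertical axis), with 1 row of points per replicate and point area growing with reads at the summit. Large points stack at the starts of HNRNPAB, HNRNPC, HNRNPK and HNRNPU, while the chain of small points across HNRNPC is from single reads.

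The genes with a summit in the first 250 bp were HNRNPAB, HNRNPC, HNRNPD, HNRNPK, HNRNPM and HNRNPU, a window set after the positions had been seen. That is 6 of the 9 genes whose strand was known, against 30.1% of protein-coding genes of known strand. By list the counts were 4, 4 and 5 of 9, against 10.3%, 18.2% and 13.6%. In 5 of 9 genes at least 2 lists had such a summit, against 9.98%. HNRNPM was the exception, with replicate 3 alone. Counting only summits in no other gene lowered the 6 genes to 5, and counting only peaks of at least 10 reads lowered them to 4. No share of protein-coding genes was taken under either rule. Of the 13 peaks at these starts, none covered the first base of the gene, and the summits lay 40 to 181 bp inside it. HNRNPUL1 has further annotated starts, and 92 and 248 bp after one of them lay summits of replicates 3 and 2, with 18 reads each. HNRNPK has another start as well, and a peak of 25 reads in replicate 2 lay 58 bp after it.

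**Figure D3:**
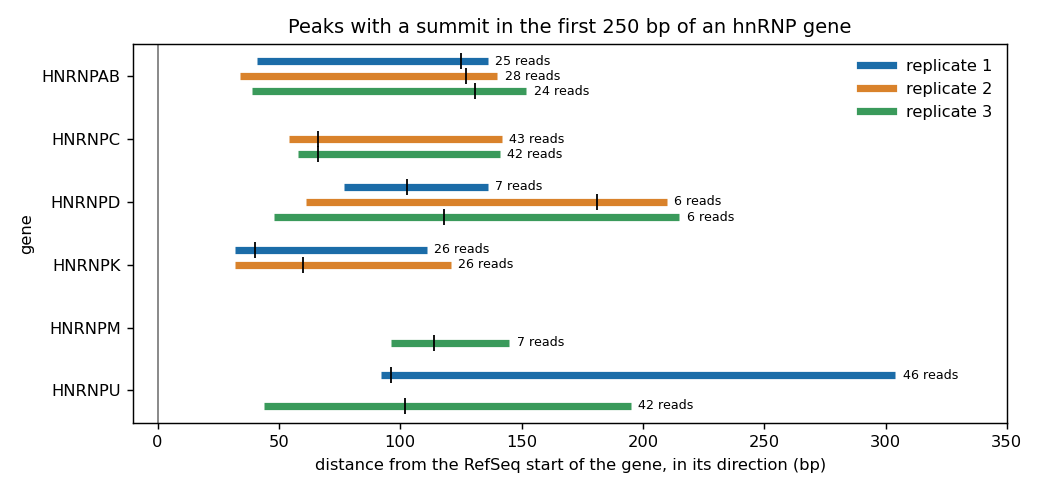
Extent of each peak with a summit in the first 250 bp of a gene (horizontal axis, bp from the RefSeq start in the direction of the gene) for 6 hnRNP genes (vertical axis), coloured by replicate, with a black tick at the summit and the reads beside it. The 3 peaks of HNRNPAB and the 2 of HNRNPC nearly coincide, and every bar begins after the gene start.

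RefSeq start windows reach 50 bases into a gene, far enough to show where 7 of the 13 peaks begin, in 4 genes. The sequences are bases 21 to 50 from the gene start, in the direction of the gene, on GRCh38.p14. Capitals mark bases covered by a peak of at least 1 list, so the change to capitals is the upstream edge of the peak. They stand at chr5:178204553-178204582 (plus strand) for HNRNPAB, chr9:83980566-83980595 (minus) for HNRNPK, chr1:244864494-244864523 (minus) for HNRNPU and chr4:82373942-82373971 (minus) for HNRNPD.
HNRNPAB: acggagcttggctgTTGGTCGGTGGGTTCC
HNRNPK: caggcgacagcaCTGCAGACGCCATTATCC
HNRNPU: cgcgccaggcgagtctccgcgtctCCCTCG
HNRNPD: cgcggcggcgccattaaagcgaggaggaGG
In HNRNPK both lists reached 18 of these bases and so began at the same base. In HNRNPAB they reached 9, 16 and 11 bases in replicates 1, 2 and 3, and in HNRNPU and HNRNPD only the peak of replicate 3 reached the window, by 6 and 2 bases. These 4 windows were 60% to 76.7% G or C, and the windows of all 9 hnRNP genes ranged from 46.7% to 86.7%. The motif TNTAA or TNTAG, the sequence context favoured by PUS7, was searched in the 50 bases after each start. It was found on the gene's strand in 2 of 12 windows of 9 hnRNP genes and on the other strand in 1, against 11.4% and 10.8% of the windows of protein-coding genes.

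Along the whole gene, 28 of 96 summits (29.2%, exact binomial 95% interval 20.3% to 39.3%) lay in the first 20% of the span, against 20.7% of summits in protein-coding genes of known strand, a share that the interval includes. The final 20% held 16 (16.7%, 9.84% to 25.7%), against 28.0%. By replicate the final share was 27.3%, 14.5% and 16.7%, against 31.9%, 28.7% and 23.96%. It was below that of protein-coding genes in each list, though the interval of replicate 1 (6.02% to 61.0%) and of replicate 3 (5.64% to 34.7%) included it. Intervals cover counting error only, and summits of one gene are not independent. In the pooled shares a site listed by several replicates is counted once per list, so those intervals may be too narrow.

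**Figure D4:**
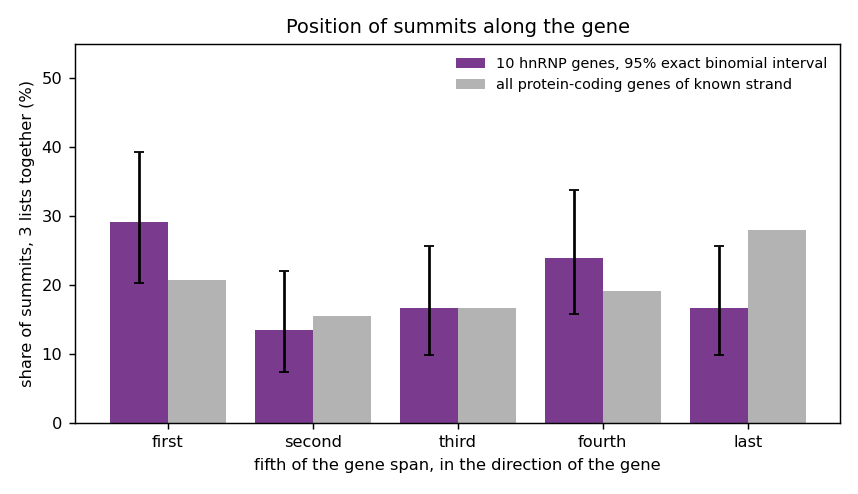
Share of summits (vertical axis, %, 3 lists together) in each 20% of the gene span from start to end (horizontal axis), for the 96 summits of the hnRNP genes with exact binomial 95% intervals and for all protein-coding genes of known strand. The hnRNP share is higher in the first bar, at 29.2%, and lower in the last, at 16.7%, where the interval does not include the protein-coding share of 28.0%. Sites listed by several replicates are counted once per list and summits of one gene are not independent, so the intervals may be too narrow.

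Replicates agreed on 19 of 74 sites, where a site is a run of summits each within 100 bp of the next. All 3 lists had a summit at 3 of them, in HNRNPAB, HNRNPD and HNRNPUL1. Replicates 2 and 3 alone shared 10, replicates 1 and 2 shared 3, and replicates 1 and 3 shared 3. Summits at the 19 sites were spread over a median of 20 bp, and in 6 by at most 5 bp. Of the sites seen once, 39 came from replicate 2, 14 from replicate 3 and 2 from replicate 1.

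The share of hnRNP summits with a summit of another list within 100 bp was above that of protein-coding genes in each list. It was 9 of 11 (81.8%), 16 of 55 (29.1%) and 16 of 30 (53.3%) in replicates 1, 2 and 3, against 46.2%, 15.4% and 31%. Among summits of at least 10 reads it was 5 of 7 (71.4%), 14 of 31 (45.2%) and 13 of 21 (61.9%), against 60%, 51% and 61%, so it was higher in replicate 1, lower in replicate 2 and about equal in replicate 3. Peaks that overlapped another list by 1 bp gave a mean of 39.7% ± 14.1 (SD, n = 3 lists). Of the 11 peaks of replicate 1, 6 (54.5%) overlapped replicate 2 and 6 (54.5%) replicate 3, against 35% and 29.2% of peaks in protein-coding genes. Of the 55 of replicate 2, 6 (10.9%) overlapped replicate 1 and 23 (41.8%) replicate 3, against 8.31% and 47.2%. Of the 30 of replicate 3, 6 (20%) overlapped replicate 1 and 17 (56.7%) replicate 2, against 16.5% and 57.7%. By overlap of peaks, the hnRNP shares stood above the background for replicate 1 and within 6 percentage points of it for replicates 2 and 3. Wide peaks of replicate 3 count in these overlaps, and 67.4% of its peaks in protein-coding genes were wider than 1000 bp. In HNRNPC 2 such peaks covered single-read peaks of replicate 2. With peaks of at most 1000 bp the mean for the hnRNP genes was 37.0%.

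**Figure D5:**
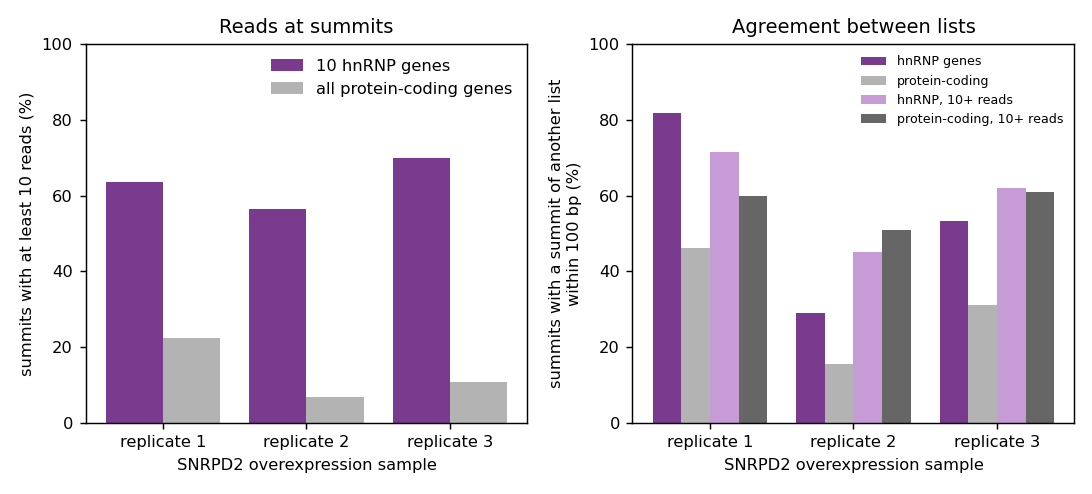
Left, share of summits with at least 10 reads (vertical axis, %) in the hnRNP genes and in all protein-coding genes for each replicate. Right, share of summits with a summit of another list within 100 bp (vertical axis, %), for all summits and for those with at least 10 reads. The hnRNP bars are taller on the left in each replicate, and on the right those for at least 10 reads are higher in replicate 1 (71.4% against 60%), lower in replicate 2 (45.2% against 51%) and about equal in replicate 3.

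A stretch of at least 20 bp covered by all 3 lists was found in 3 of 10 genes, HNRNPAB, HNRNPD and HNRNPUL1, against 10.8% of protein-coding genes. In genes of 6 to 15 kb it was 1 of 6, against 5.58%, and in genes of 20 to 65 kb 2 of 4, against 13.4%. All 9 peaks behind the 3 stretches were at most 168 bp wide, so none rested on the wide peaks of replicate 3. The count was 6 without replicate 1, 5 without replicate 2 and 6 without replicate 3. A stretch then needed cover by only 2 lists, an easier rule that favours a higher count. No share of protein-coding genes was taken under that rule. With at least 10 reads in each peak HNRNPAB and HNRNPUL1 kept theirs, and no stretch was left when only peaks of −log10 q 1.3 or more were used.

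A list of 33 other genes took in further hnRNP genes, the PTBP and PCBP families and related RNA-binding proteins. Of these, 19 (57.6%) had a summit in all 3 lists, against 38.5% of protein-coding genes. HNRNPCL1 alone had none in any list, while 18.1% of protein-coding genes had none. Some of the 33 are very long, such as RALYL at 739 kb, and genes of like length were not set beside them. A stretch covered by all lists was found in 4 (12.1%), DAZAP1, HNRNPA1L2, MSI2 and TAF15, against 10.8% of protein-coding genes. EWSR1, which encodes an RNA-binding protein, had the strongest peaks of this list by mean rank, with 12, 51 and 25 reads and folds of 4.10, 2.05 and 6.57. RALY, an hnRNP C relative, followed with 12, 2 and 13 reads, and DAZAP1 with 26, 14 and 8. PTBP1, which encodes the polypyrimidine tract binding protein, had 18, 42 and 22 reads and was named after its values were seen.

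Copies of the 10 genes annotated as pseudogenes were examined by the same rule. Of 112 copies, 42 (37.5%) had a summit in at least 1 list, against 23.1% of RefSeq pseudogenes, and 1, HNRNPCP2, in all 3, against 2.62%. Among copies of 1 to 2 kb the counts were 32 of 86 (37.2%) and 1 of 86, against 28% and 2.27% of pseudogenes of that length. HNRNPCP2 had 12, 11 and 15 reads and folds of 4.10, 4.28 and 4.16, although HNRNPC itself had no peak in replicate 1. It lies inside another gene, AKAP19, and reads of the copy, of AKAP19 and of HNRNPC cannot be told apart. In replicate 3 a wide peak gave the strongest summit of 21 of the 26 copies with one. Copies listed in replicates 2 and 3 by narrow peaks were HNRNPKP4 with 11 and 9 reads, HNRNPA1P10 with 10 and 16, and HNRNPA1P7 with 4 and 10. HNRNPA1P12, HNRNPA1P43, HNRNPA3P1, HNRNPDP1 and HNRNPKP1 were listed in the same replicates through a wide peak of replicate 3. HNRNPA1P39 had a peak of 3 reads in replicate 1 and summits of a single read in replicate 2, and HNRNPA1P41 had 5 reads in replicate 1 and 1 in replicate 3.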

How the data were processed

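RIP-seq of HEK293T cells had given 1 peak list for each of 3 SNRPD2OE samples, which were grouped by the labels' titles. The submitters' processing notes name the tools MACS2 2.2.9.1, STAR 2.7.10b and cutadapt 4.2 and the build GRCh38, without saying what each was used for. Not given in the sources used here were the caller's options, its background library, and how strand and duplicates were handled.

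The authors deposited for each peak a score (the whole part of 10 times the −log10 p), a fold, read as scaled pileup plus 1 over background plus 1, an unadjusted −log10 p-value and a −log10 q-value. The smallest −log10 p was 2.00. The fold depends on the scaling of each list and was used only within a list, and the other deposited columns give positions. Reads at a summit were solved from fold and p, with 1 read worth 0.599, 1.000 and 0.254 of scaled pileup. A whole number was found for every peak. Peak lists give no library totals, so depth is known only as these reads.

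Spans came from RefSeq genes of GRCh38.p14. Strand came from the RefSeq start windows, which hold 9 of the 10 genes, all but HNRNPA1. Exons were not used here. The share with an exact binomial interval has a level of 95%. Steps were tested on simulated data (Python 3.11.15, SciPy 1.17.1).

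Genes named beyond the members were the other hnRNP genes with a shared stretch, the top 3 of that list by mean percentile of the strongest peak, copies with a summit in at least 2 lists, and genes that overlap a member at its strongest peak. PTBP1, MIR7-1 and SNORA100 were named after their values were seen. A shared stretch was at least 20 bp covered by all 3 lists. Members and lists were chosen with earlier results of these data known, and the 250 bp and 100 bp windows and the length classes after the data were seen. Alternatives filtered peaks by q, width, reads or shared genes, equalised list length, changed windows and left out each replicate.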

Additional observations from a re-analysis of the deposited data

How the results depend on the processing

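Lists cut to equal length, summits in no other gene and peaks of at most 1000 bp left the count of genes with a summit in all lists at 5 and of genes with a shared stretch at 3. Equal length lowered the summits to 58, and peaks of at least 10 reads lowered them to 59 and the genes with a summit in all lists to 3. At a −log10 q of at least 1.3, 9 summits were left, 3 genes had one within 250 bp of the start, and genes in all lists, shared stretches and sites of 2 or more lists were 0. At a −log10 q of at least 3, 2 summits were left and the other 4 counts were 0. No share or agreement could be computed for replicates without a peak. Shared stretches of at least 100 bp were found in 0 genes, and stretches covered in 2 of 3 lists in 8. Within 100 bp of the start 3 genes had a summit. The mean share in the final 20% of the gene was 19.5%, in the last 10% of the gene it was 10%, and in the last 1/3 31.7%. Reciprocal overlap of 50% lowered the mean agreement to 23.4%. Leaving out 1 replicate gave 5 to 7 genes with a summit in every list and 5 to 6 with a shared stretch. Fewer lists had to hold each of these, which favours higher counts. It also gave 41 to 85 summits, 15.6% to 21.97% in the final 20%, an agreement of 32.7% to 49.2%, 5 to 6 genes with a start summit and 6 to 13 sites. The summits fell to 41 without replicate 2, and the sites to 6 without replicate 2 or replicate 3. No paired analysis was possible because the control samples, which carry the same replicate numbers, were not analysed and no test was made. The windows at gene starts and the linking of sites were chosen after seeing the data. Depth is known only as reads at summits, so a gene without a peak was not shown to lack binding, and transcript levels were not measured here.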
